A study of Homo sapiens with 4 samples.

Results

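The 10 genes described here encode the transcription factors and cofactors that set erythroid and megakaryocytic identity: GATA1, GATA2, TAL1, KLF1, NFE2, LMO2, LDB1, ZFPM1, GFI1B and RUNX1. They were chosen by name, as regulators of these lineages, and all 10 were found among the 35606 genes of the count table. Their mRNA was compared between K562 cells carrying the JAZF1-SUZ12 fusion (2 libraries, labelled JS) and mock cells (2 libraries). K562 is an established human chronic myelogenous leukaemia line that carries the BCR-ABL1 fusion and keeps erythroid and megakaryocytic features, and both groups share that background. JAZF1-SUZ12 joins a zinc finger protein to SUZ12, a core subunit of Polycomb repressive complex 2, and is known from endometrial stromal sarcoma. How the fusion was introduced, what the mock cells received, how long it was expressed and whether a group is 1 clone or 1 culture are not given in the sources used here. P-values therefore measure the spread between these libraries, which may be technical.

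These factors work as a network. GATA1 and GATA2 bind GATA motifs, TAL1 binds E-boxes together with an E protein, and LMO2 and LDB1 hold both on DNA in a single complex that loops enhancers to promoters. ZFPM1 (FOG1) is the GATA cofactor that recruits the NuRD repressor, GFI1B is a zinc finger repressor that recruits KDM1A and RCOR1, KLF1 activates genes with CACCC boxes, RUNX1 works with CBFB, and NFE2 pairs with small MAF proteins at globin enhancers and in platelet formation. In early erythroid cells GATA2 gives way to GATA1, megakaryocytes depend on RUNX1 and NFE2, and KLF1 marks the erythroid branch.

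Of the 10 factors, 1 rose and 3 fell with JAZF1-SUZ12. NFE2 rose by 15.3%, and GFI1B, RUNX1 and LMO2 fell by 20.7%, 21.0% and 19.1%. GATA1, KLF1 and TAL1, the core of the erythroid program, differed from mock by 3.03%, 1.09% and -2.36% and did not pass the test. GATA2, LDB1 and ZFPM1 were lower in both fusion libraries and did not pass it either. A gene was called at an adjusted p under 0.05 in edgeR's quasi-likelihood test, adjusted over all 14750 genes tested. At that threshold 24.7% of all genes were called, 13.3% higher and 11.4% lower. Among the 2746 genes with a mean count in the factors' range, 35.0% were called, 210 higher and 752 lower. The 4 calls in 10, most of them lower, are therefore near the share among genes of like abundance. With GC and length offsets, which called 32.2% of genes, the split became 1 factor higher and 6 lower, and that of all genes moved from 1955 higher and 1688 lower to 1649 higher and 3107 lower.

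The called changes were modest in size. The largest absolute log2 fold change among the factors was 0.34, which 25.9% of all tested genes exceeded. Among called genes in the factors' count range the median absolute log2 fold change was 0.21. RUNX1, GFI1B and LMO2 lay above that median and NFE2 lay close to it. The median of the 10 log2 fold changes was -0.08, against 0.0032 for all genes tested and -0.08 for genes in the factors' count range. The libraries of the groups did not overlap for 8 of the 10 factors, 7 of them lower. Over all genes the groups did not overlap for 61.3%, and were lower without overlap for 30.3%. These shares were not computed for genes in the factors' count range. In that range 769 of the 2746 genes had a log2 fold change above 0, as did 3 of the 10 factors. Every factor was well covered, with 1204 to 8501 counts in a library, and their mean levels stood between percentiles 78.4 and 96.89 of the genes tested.

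**Figure D1:**
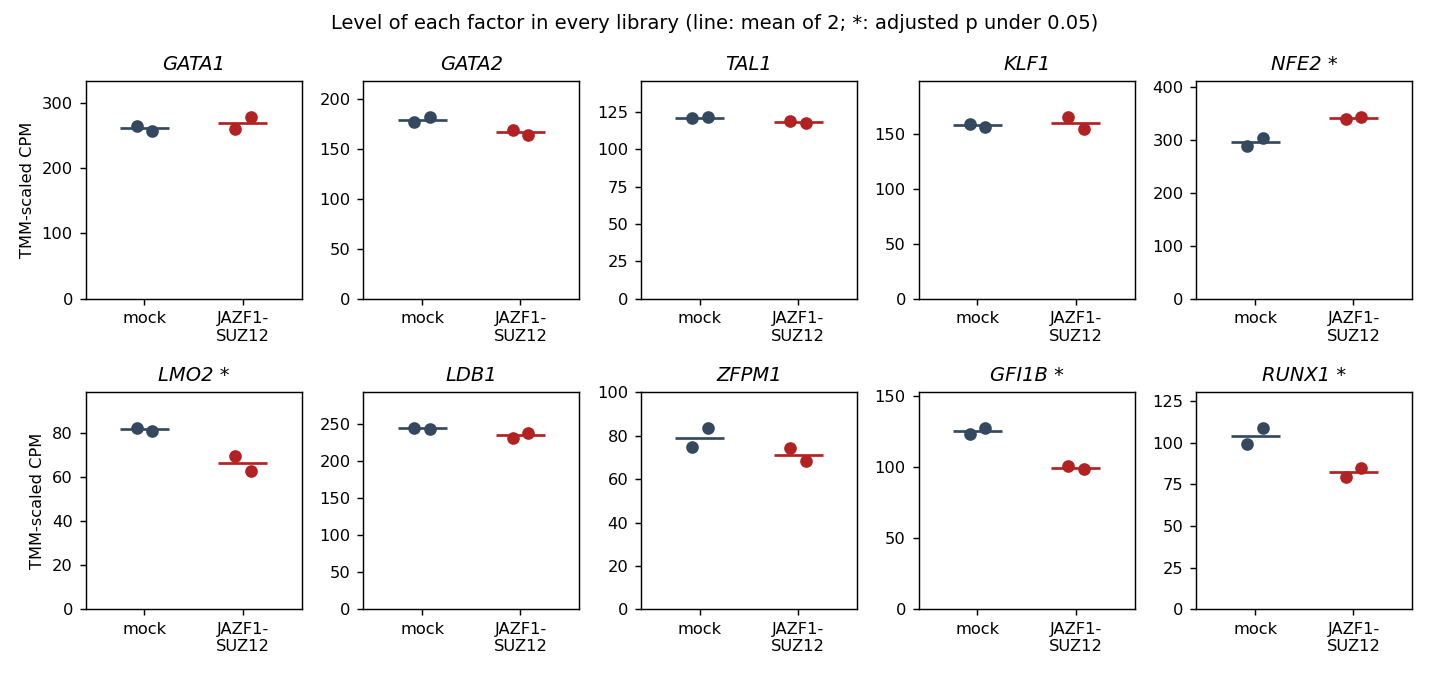
Level of each of the 10 factors in TMM-scaled CPM (vertical axis, from 0, a scale per panel) in the 2 mock and 2 JAZF1-SUZ12 libraries. Points are libraries, lines are group means and asterisks mark an adjusted p under 0.05. NFE2 is higher and LMO2, GFI1B and RUNX1 are lower in both fusion libraries, whereas the groups overlap for GATA1 and KLF1.

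Levels of the same gene are given as CPM (counts per 1000000) scaled by TMM, which corrects the library totals for composition. The libraries held between 17260936 and 24423028 counts with scaling factors close to 1. JAZF1 was at 33.3 and 29.5 CPM in the fusion libraries against 0.591 and 1.28 in mock, and SUZ12 was 2.01-fold higher. These gene-level counts hold the fusion together with both parent genes, and all 4 libraries went with their labels. The source label names the uterus although the line is K562, so defining markers were examined. The erythroid markers HBZ and ALAS2 were at 564 ± 20.8 and 57.3 ± 1.36 CPM in mock and at 1022 ± 41.3 and 91.4 ± 2.79 CPM in fusion libraries (SD, n = 2). Markers of other cell types were summed. The 11 endometrial stromal markers totalled 16.5 to 18.3 CPM in mock and 36.3 to 36.7 with the fusion, with 2 of them at 3 counts or fewer in every library. Most of that rise was COL1A1, which went from 5.83 to 21.2 CPM, whereas LUM had no count and DCN and COL6A3 did not pass the test. Of the 6 stromal markers tested, 2 were called higher and 0 lower, and 5 had a log2 fold change above 0. The 10 monocyte and granulocyte markers totalled 74.0 to 76.1 CPM in mock and 49.4 to 50.1 with the fusion, with 3 at 3 counts or fewer in every library. Lymphocyte markers (9 genes) reached at most 22.9 CPM in mock and 25.1 with the fusion, endothelial markers (6 genes) 15.1 and 17.7, and mast cell or eosinophil markers (8 genes) 7.30 and 5.87. The part of these shifts in the results was not tested, and fewer cells of a type cannot be told apart from less RNA per cell.

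GATA1 (chromosome X, 48786554-48794311, plus strand; GRCh38 positions from GENCODE 29, here and for the other genes) was measured at 265 and 258 CPM in mock and at 259.8 and 278 CPM in JAZF1-SUZ12 libraries. The groups overlapped. Its log2 fold change was 0.04 ± 0.05 (standard error, as after every ± beside a log2 fold change; adjusted p = 0.562), with a 95% interval from -3.94% to 10.5% of the mock level.

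GATA2 (chromosome 3, 128479427-128493185, minus strand), the progenitor GATA factor, was at 177 and 182 CPM in mock and 169 and 164 CPM with the fusion. Both fusion libraries lay below both mock libraries. The log2 fold change of -0.11 ± 0.05 did not pass after adjustment (adjusted p = 0.125), although its own interval, -13.5% to -0.258%, did not include 0. With GC and length offsets from least squares curves it was -0.21 and passed (adjusted p = 0.00267). With offsets from robust curves it was -0.09 and did not pass (adjusted p = 0.155).

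TAL1 (chromosome 1, 47216290-47232220, minus strand) had the tightest libraries of the set, 121.2 and 121.5 CPM in mock against 119 and 118 CPM with the fusion. They did not overlap. The log2 fold change was nonetheless only -0.03 ± 0.05 (adjusted p = 0.675), with an interval from -9.44% to 5.27%. KLF1 (chromosome 19, 12884422-12887199, minus strand), which switches on adult globin and heme genes, was at 159 and 156 CPM in mock and 165 and 154 CPM with the fusion. The fusion libraries enclosed the mock libraries, and the log2 fold change was 0.02 ± 0.05 (adjusted p = 0.864, interval from -6.27% to 9.03%).

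Promoter windows were searched for GATAA, the letters used here for a GATA motif. Other forms of the motif were not searched, so a window without a match may still hold one. A window of TAL1 and of KLF1, which did not pass the test, and of GFI1B, which fell, held a match. The windows searched of GATA1, GATA2, LDB1 and ZFPM1, which did not pass, and of RUNX1, which fell, held none. The RUNX1 window (34888650-34888949) lay far inside its annotated minus-strand span, which ends at 36004667. That of LDB1 also lay inside its span, so starts further upstream of these genes were not searched. The 120 bases before the annotated start, on the gene's strand, are shown for 3 of them as examples of stretches with and without a match, with GATAA or its reverse TTATC in capitals (RefSeq, GRCh38.p14).
TAL1, chr1:47232336-47232455, minus strand: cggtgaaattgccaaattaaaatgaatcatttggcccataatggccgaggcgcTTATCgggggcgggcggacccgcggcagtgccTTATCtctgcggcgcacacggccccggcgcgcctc
KLF1, chr19:12887202-12887321, minus strand: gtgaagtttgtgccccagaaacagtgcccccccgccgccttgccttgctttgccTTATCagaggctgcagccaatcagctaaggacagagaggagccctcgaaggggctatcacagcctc
RUNX1, chr21:34888700-34888819, minus strand: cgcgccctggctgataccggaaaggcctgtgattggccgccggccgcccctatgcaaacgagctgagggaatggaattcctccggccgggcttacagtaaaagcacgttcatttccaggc
The TAL1 stretch holds 2 matches, beginning 67 and 35 bases before the start, and the KLF1 stretch holds 1, beginning 66 bases before it. Windows of 300 bases (250 before and 50 after a start) were searched on both strands for 8 of the 10 genes, 11 windows in all. NFE2 and LMO2 had no window. GATAA was in 3 of the 11 windows, in TAL1, KLF1 and GFI1B, against 22.7% of all 35116 promoter windows of that length. The E-box CANNTG was in 5 (68.7% of all), the CACCC box in 7 (59.9%), the RUNX motif TGTGGT in 1 (13.1%) and the NFE2-type motif TGAGTCA in 0 (4.9%). CANNTG reads the same on both strands, and matches of different motifs that share letters were all kept. A match in these windows is only a match of letters, and no binding was measured.

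The adaptors differed from each other. LMO2 (chromosome 11, 33858576-33892289, minus strand), the LIM-only bridge between TAL1 and the GATA factor, was at 82.4 and 81.3 CPM in mock and 69.9 and 63.0 CPM with the fusion. Every fusion library was below every mock library, by more than the fusion replicates differed. The log2 fold change was -0.31 ± 0.06 (adjusted p = 0.00219), with an interval from -26.2% to -11.2%. LDB1 (chromosome 10, 102107560-102120453, minus strand), the dimerizing partner that LMO2 binds, was at 244.3 and 243.6 CPM in mock and 231 and 237 CPM with the fusion. The groups did not overlap, yet the log2 fold change of -0.06 ± 0.05 did not pass (adjusted p = 0.387). Its interval ran from -10.1% to 2.64%.

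ZFPM1 (chromosome 16, 88453317-88537016, plus strand) had the largest standard error of the set. It was at 74.7 and 83.5 CPM in mock and 74.1 and 68.5 CPM with the fusion, so the nearest libraries of the groups differed by under 1 CPM. Its log2 fold change was -0.15 ± 0.07 (adjusted p = 0.107). Its longest transcript has the highest GC content of the set, 69.0%, and with GC and length offsets the log2 fold change became -0.42 (adjusted p = 0.000104), or -0.18 (adjusted p = 0.0293) where robust curves, which called 23.6% of genes, gave the offsets. Without mock library 2 it was -0.08.

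GFI1B (chromosome 9, 132944000-132991687, plus strand), the repressor that limits erythroid and megakaryocytic progenitor genes and its own transcription, had the smallest p of the set. It was at 123 and 127 CPM in mock and at 100.3 and 98.3 CPM with the fusion. The gap between the groups was larger than the spread within either. Its log2 fold change was -0.33 ± 0.05 (adjusted p = 0.000271), with an interval from -26.7% to -14.3%. The annotated gene overlaps TSC1 on the opposite strand. The libraries were directional, but use of strand in counting is not stated, so reads of the overlap could be split between the genes.

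RUNX1 (chromosome 21, 34787801-36004667, minus strand), needed for the emergence of blood cells and for megakaryocytes, was at 99.5 and 109 CPM in mock and at 79.6 and 84.7 CPM with the fusion. The groups did not overlap, and the replicates of each differed by less than the gap. The log2 fold change was -0.34 ± 0.06 (adjusted p = 0.00076), with an interval from -27.8% to -13.6%. Its annotated span holds several small pseudogenes and non-coding genes, and 17 transcripts are annotated, which gene-level counts do not separate.

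NFE2 (chromosome 12, 54292111-54301121, minus strand) went the other way. The p45 subunit of the NF-E2 factor was at 288 and 304 CPM in mock and at 339 and 343 CPM with the fusion. Both fusion libraries lay above both mock libraries. Its log2 fold change was 0.21 ± 0.05 (adjusted p = 0.0034), with an interval from 7.90% to 23.2%.

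**Figure D2:**
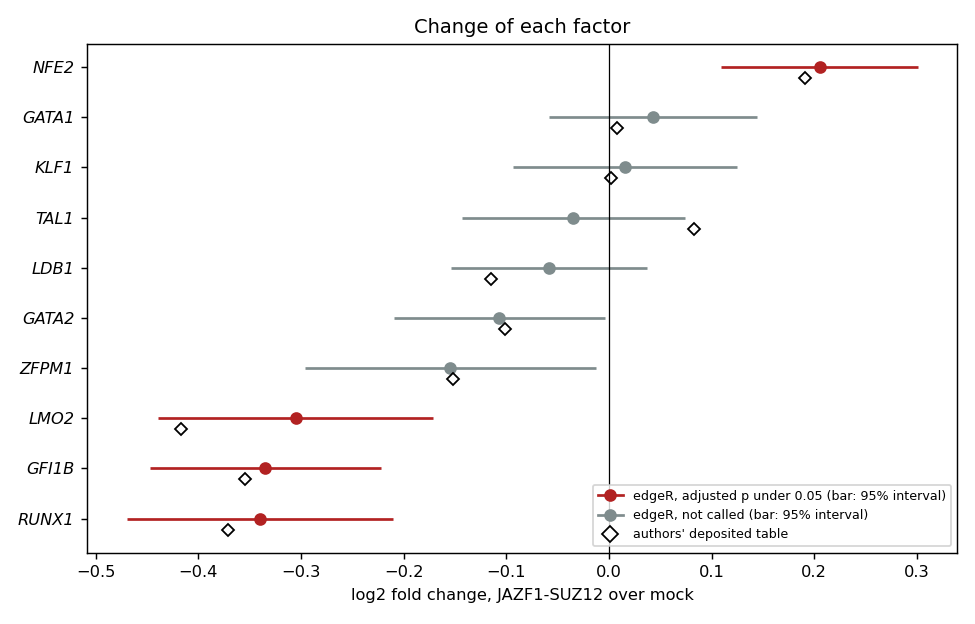
Log2 fold change of each factor, JAZF1-SUZ12 over mock (horizontal axis), with its 95% interval from edgeR (2 libraries a group), and the value in the authors' deposited table as open diamonds. The intervals of NFE2, LMO2, GFI1B and RUNX1 lie away from 0, those of GATA1, KLF1, TAL1 and LDB1 include it, and those of GATA2 and ZFPM1 end just short of it without passing after adjustment.

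The authors' deposited table called the same 4 factors, where 8.50% of its genes with an adjusted p were called. The authors' deposited table put NFE2 at 0.19 on the log2 scale (adjusted p = 0.031), LMO2 at -0.42 (adjusted p = 0.0166), GFI1B at -0.35 (adjusted p = 0.00178) and RUNX1 at -0.37 (adjusted p = 0.00477). TAL1 was the single factor with the opposite sign in the authors' deposited table, at 0.08 with an adjusted p of 0.755. DESeq2 run on the counts, which called 16.3% of genes, called these 4 and no other factor. The authors' deposited table had the remaining members between -0.15 for ZFPM1 and 0.0078 for GATA1, TAL1 apart.

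Levels of different genes were compared per length, as TPM (counts divided by length, then scaled to one fixed sum per library) from the longest annotated transcript. In mock cells GATA1 stood highest at 424 ± 10.01 TPM (SD, n = 2, as for all TPM means here). NFE2 followed at 392 ± 13.1, then LDB1 at 259 ± 1.80 and KLF1 at 238 ± 3.81. GATA2 was at 129 ± 1.89, GFI1B at 100.6 ± 1.90, LMO2 at 86.6 ± 1.31 and TAL1 at 58.9 ± 0.168. ZFPM1 at 35.7 ± 2.64 and RUNX1 at 34.8 ± 2.04 TPM closed the order, and theirs were the only neighbouring libraries in mock that overlapped.

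With JAZF1-SUZ12 the order of the lower 8 was the same, and the top pair changed places. NFE2 was at 456 ± 11.8 TPM and GATA1 at 441 ± 29.4, but their libraries overlapped, as did those of LDB1 (251 ± 9.37) and KLF1 (243 ± 7.32). The fallen factors were at 80.6 ± 0.331 TPM for GFI1B, 71.0 ± 3.92 for LMO2 and 27.7 ± 1.73 for RUNX1, and RUNX1 no longer overlapped ZFPM1 at 32.5 ± 1.21. The order rests on the transcript length used. With the median length, GATA1, NFE2 and LDB1 remained the upper 3 in mock at 184, 166 and 159 TPM, ZFPM1 moved up to 131 and LMO2 was lowest at 49.7.

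**Figure D3:**
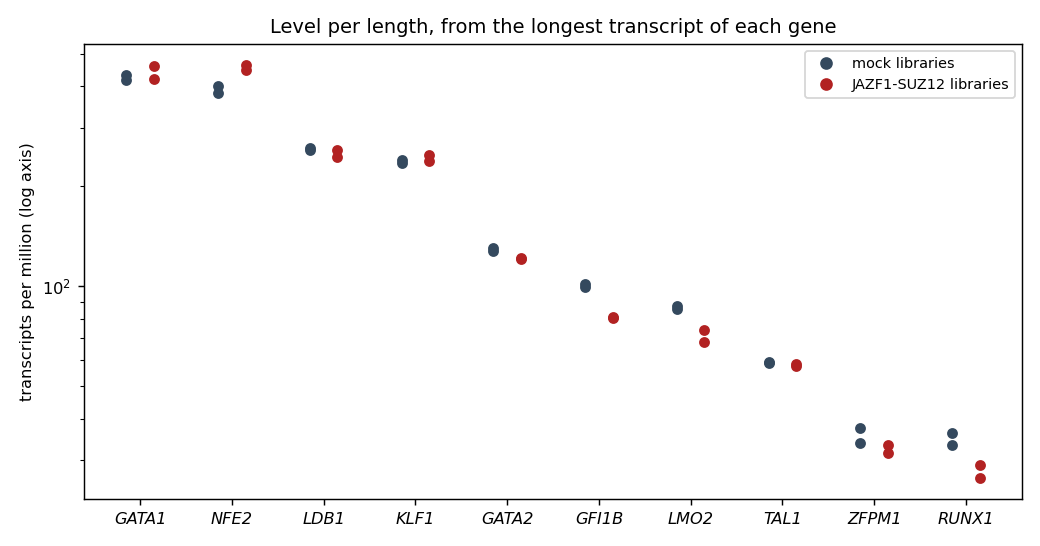
Level in TPM of each factor from its longest annotated transcript (vertical log axis), each point a library, ordered by the mock mean. The factors span from 34.8 TPM for RUNX1 to 424 TPM for GATA1 in mock, and the fusion libraries of NFE2 reach those of GATA1.

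Ratios between factors were formed from TPM of the longest transcript within a library. Their size depends on that length, so only their shift between groups is read here. With the median length, mock GATA1 and RUNX1 were at 184 and 61.3 TPM, against 424 and 34.8 with the longest. The ratio of GATA1 to GATA2 was 3.37 and 3.19 in mock and 3.45 and 3.81 with the fusion. LDB1 exceeded its partner LMO2 by 2.97 and 3.01 in mock and by 3.32 and 3.78 with the fusion. All 4 fusion values of these ratios were above the mock values.

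Against RUNX1 the erythroid activators stood higher with the fusion. The ratio of GATA1 to RUNX1 was 12.9 and 11.5 in mock and 15.9 in each fusion library. NFE2 to RUNX1 went from 11.5 and 11.1 to 16.9 and 16.1, the widest shift of the 8 ratios formed. The ratio of ZFPM1 to GATA1 overlapped between groups, at 0.0785 and 0.0902 in mock and 0.0794 and 0.0685 with the fusion. These ratios were formed from genes whose changes were already known and carry no test. Summed over the 10 factors, the level was 1633 and 1666 CPM in mock and 1608 and 1609 CPM with the fusion, with less between the nearest libraries of the groups than between the mock libraries.

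**Figure D4:**
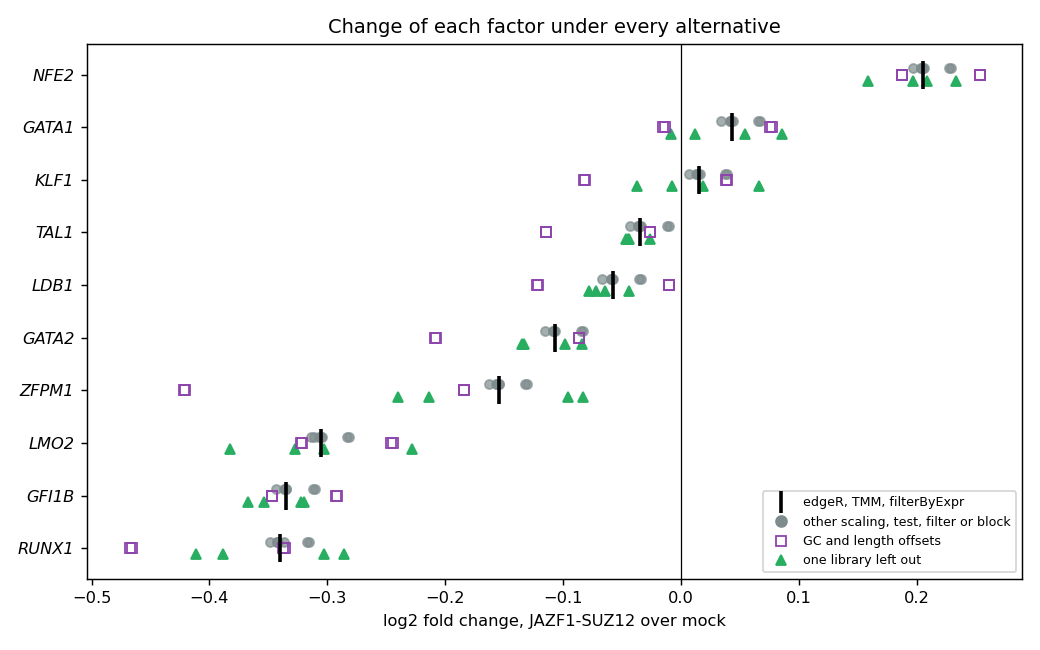
Log2 fold change of each factor (horizontal axis) by the reported analysis (black bars), under other scaling, tests, filters or a replicate block (grey), with GC and length offsets (purple squares) and with 1 library left out (green triangles). NFE2 stays above 0 and LMO2, GFI1B and RUNX1 stay below it at every mark, whereas the marks of GATA1 and KLF1 lie on both sides of 0.

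The 4 called factors passed in each of 11 other analyses that give a test. There NFE2 ranged from 0.19 to 0.25 on the log2 scale, LMO2 from -0.32 to -0.24, GFI1B from -0.35 to -0.29 and RUNX1 from -0.47 to -0.32. GATA1, KLF1 and TAL1 passed in none of them. LDB1 passed in 2 of them, both with offsets for GC and length from least squares curves (log2 fold change -0.12), under which GATA1 and KLF1 turned to small negative values.

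Most partners in the same complexes did not pass the test. All 24 listed partners were tested, among them E proteins, KDM1A, RCOR1, CBFB, small MAF proteins and NuRD subunits. Of these, 1 was higher and 6 were lower, with a median log2 fold change of -0.07. The share called was 29.2%, near the 24.7% of all genes and the 35.0% of genes in the factors' count range. CHD4, the remodelling ATPase of NuRD, fell from 747 ± 5.39 to 636 ± 22.3 CPM (log2 fold change -0.23, adjusted p = 0.000753). MTA2, another NuRD subunit, fell by 0.23 on the log2 scale. Of the 7 NuRD subunits in the list 3 were lower and 0 higher, where 11.4% of all genes were lower and 13.3% higher. These subunits are abundant, and in the factors' count range 752 of 2746 genes were lower and 210 higher. CBFA2T3 (ETO2), the corepressor bound to the TAL1 complex, fell from 153 ± 3.05 to 125 ± 8.65 CPM (log2 fold change -0.29, adjusted p = 0.00118). TCF4, an E protein, rose by 0.41. The GFI1B corepressors KDM1A and RCOR1 were at log2 fold changes of -0.01 and -0.07 and the RUNX1 partner CBFB at -0.12, named here after their values were seen, and none of these 3 passed.

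Among paralogs, more genes were called higher than lower. Of 34 paralogs (GATA, KLF, GFI1, RUNX, LMO, TAL-type and NFE2-like genes) 27 were tested, 9 were higher and 3 lower, with a median of 0.37. The share called was 44.4%, against 24.7% of all genes, of which 13.3% were higher and 11.4% lower. The KLF family gave most of the calls, with 6 of 14 tested higher and 1 lower. Among those higher, KLF7 had only 3 and 1 counts in mock and 9 and 14 with the fusion. KLF10 rose by 0.37, KLF13 by 0.35 and KLF9 by 0.38 on the log2 scale. KLF16 fell by 0.20, LYL1 (the TAL1 paralog) by 0.18 and NFE2L2 (NRF2) by 0.18. RUNX2, singled out after its values were seen as the paralog of a fallen factor, had 1 and 7 counts in mock and 12 and 27 with the fusion (adjusted p = 0.0366). Its level with the fusion was 0.893 ± 0.277 CPM.

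Erythroid genes known as targets of GATA1, TAL1 and KLF1 were mostly higher. Of 50, 49 were tested, 24 were higher and 1 lower, with a median of 0.17, and 40 had a log2 fold change above 0. The share called was 51%, against 24.7% of all genes and 35.0% of genes in the factors' count range. This list overlaps genes already known to rise in these libraries and is no independent evidence of its direction. Among the 10 globin genes 5 were higher and 0 lower, and likewise 5 of the 8 enzymes of heme synthesis. Of all genes, 13.3% were higher and 11.4% lower. The called globins included HBB, which had 1 count in each mock library and 13 and 24 with the fusion. The abundant HBA1, HBA2 and HBG2 were not called. HBZ, the embryonic zeta globin, rose from 564 ± 20.8 to 1022 ± 41.3 CPM (log2 fold change 0.86). ALAS2, the erythroid enzyme that begins heme synthesis, rose by 0.68 and SLC25A37, the mitochondrial iron importer, by 0.57. TFR2, an iron sensor of the transferrin pathway, was the member that fell, by 0.21. Near-identical globin pairs share reads, so their single values are less certain.

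Megakaryocyte genes moved both ways. Of 21, 12 were tested, 3 were higher and 3 lower, with a median of -0.01. The share called was 50%, against 24.7% of all genes. TUBB1, the platelet tubulin, rose from 25.8 ± 0.192 to 41.2 ± 1.17 CPM (log2 fold change 0.68), and CD9, a platelet surface tetraspanin, rose by 1.53 from 2.94 ± 0.331 CPM. FLI1, the ETS factor of megakaryocytes, had 1 count in each mock library and 11 and 21 with the fusion, at least 5.12-fold higher against a floor of 3 counts a library. THBS1 (thrombospondin) fell by 1.11, GP6 (the platelet collagen receptor) by 0.74 and GP1BB by 0.18.

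**Figure D5:**
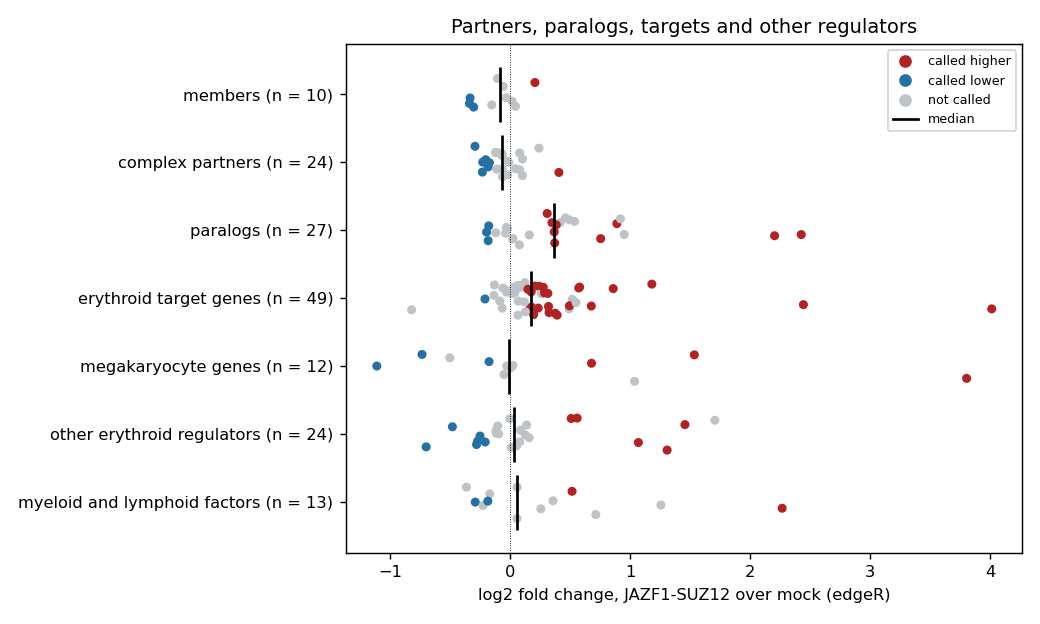
Log2 fold changes (horizontal axis) of the 10 factors and of the tested genes of 6 lists, with genes called higher in red, called lower in blue and not called in grey, and black bars for list medians. The factors lie between -0.34 and 0.21. The paralogs have a median of 0.37 (0.26 with a mean of at least 50 counts, not drawn) and the erythroid target genes one of 0.17.

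The other erythroid regulators were divided. All 24 were tested, 5 were higher and 6 lower, with a median of 0.03. The share called was 45.8%, against 24.7% of all genes. FOXO3, which promotes erythroid maturation, rose by 0.56, MXI1, a MYC antagonist, by 0.51, and KIT, the stem cell factor receptor, by 1.31 from 2.52 ± 0.546 CPM. STAT5A, which carries erythropoietin signals, fell from 640 ± 10.3 to 458 ± 9.35 CPM (log2 fold change -0.48), a larger fold change than that of any of the 10 factors. MYB fell by 0.25 and IKZF1 by 0.28. Of 23 factors of myeloid and lymphoid lineages 13 were tested, 2 were higher and 2 lower (30.8% called, against 24.7% of all genes). TCF7 rose by 0.51 and HLF, at 4 and 3 counts in mock and 15 and 20 with the fusion, by 2.27. SPI1 (PU.1), the myeloid factor that opposes GATA1, fell by 0.29, from 28.1 ± 2.16 to 23.0 ± 0.0306 CPM, and HHEX fell by 0.19.

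Among the 167 tested genes of all lists, those whose level over the 4 libraries was most like that of GFI1B were ZBTB7A, MYB and IKZF1. Their root mean square differences from it were 0.0326, 0.0417 and 0.0420 on the log2 scale. With 4 libraries in 2 groups the likeness mostly restates that these genes were lower by a similar amount.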

How the data were processed

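Poly(A) RNA of K562 cells was sequenced from directional libraries, per the labels' protocols, in 2 JAZF1-SUZ12 and 2 mock libraries. The authors deposited estimated counts per gene, not normalized, of which 29.9% to 33.6% a library are not whole (tolerance 1e-06). The submitters' processing notes name kallisto 0.46.2, fastp 0.20.1, FastQC 0.11.7, MultiQC 1.5, DESeq2 1.30.1 and hg38, and the annotation is not given in the sources used here. In the table of the authors' own comparison, the mean signal, log2 fold changes with their errors, the test score and the p-values come from DESeq2, per the file headers, whose column names it uses.

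Counts were rounded, filtered with filterByExpr (14750 genes kept), scaled by TMM and tested two-sided with edgeR 4.0.16 (R 4.3.3, quasi-likelihood, group only), with Benjamini-Hochberg adjustment over all genes and 0.05 as the threshold. Intervals at 95% use the moderated degrees of freedom. TPM used GENCODE 29 transcript lengths, and 35410 of 35606 gene IDs matched. Alternatives were median-ratio or total-count scaling, DESeq2 1.42.0, limma-voom (limma 3.58.1), 2 other filters, a replicate block, GC and length offsets by loess, a threshold of 0.01 and leaving out each library. Offsets from robust curves were added after seeing the data.

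The members and the 6 gene lists were chosen with earlier results of these data known. The text names all members, up to 3 called genes of each list in each direction by smallest adjusted p, and the 3 genes most like the member with the smallest p. No unique molecular identifiers are stated, so the floor of 3 counts covers counting error only, and 2 libraries a group limit every SD. The summed level of the erythroid marker list is not reported here.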

Additional observations from a re-analysis of the deposited data

How the results depend on the processing

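NFE2, LMO2, GFI1B and RUNX1 kept their direction and passed in all 11 alternatives with a test, at adjusted p of at most 0.0035, 0.00882, 0.00084 and 0.00171. GC and length offsets from least squares curves moved the most: the number of factors lower became 6, and 6 with the replicate block as well, against 3. GATA1 turned to -0.014 and KLF1 to -0.082 with these offsets, and to -0.015 and -0.081 with the block added, none of which passed. These offsets moved the median of all genes to -0.05. The robust curves, chosen after seeing the data, gave 4 factors lower and a median of 0.03. The cause was not tested. Replicate numbers did not pair the libraries (r = 0.0345 over 11826 genes), and the replicate block alone left 3 factors lower and 1 higher.

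With 1 library left out, fold changes were computed without a test. GFI1B ranged from -0.37 to -0.32, RUNX1 from -0.41 to -0.29, LMO2 from -0.38 to -0.23, NFE2 from 0.16 to 0.23, GATA2 from -0.13 to -0.084, LDB1 from -0.078 to -0.044 and TAL1 from -0.047 to -0.027. GATA1, from -0.0089 to 0.0855, and KLF1, from -0.038 to 0.066, crossed 0, and ZFPM1 ran from -0.24 without mock library 1 to -0.083 without mock library 2. The median of the factors ranged from -0.10 to -0.078 over these and was -0.17 with GC and length offsets, where that of the partners was -0.15, against -0.08 and -0.07.

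Counts in the lists moved by over 1.5 times as follows. Of the partners, 12 were lower with GC and length offsets and 3 at the threshold of 0.01. Of the paralogs, 4 were higher with DESeq2 and 5 at 0.01. The 3 paralogs lower became 1 with DESeq2 or robust curves and 0 at 0.01. Of the erythroid target genes, 4 were lower with the offsets and 5 with the block added. Of the megakaryocyte genes, 5 were higher with no filter. Of the myeloid and lymphoid factors, 1 was higher with DESeq2, at 0.01 or with a mean of at least 50 counts, and 0 (DESeq2, 0.01) to 4 (offsets) were lower. Over all genes, 1255 were higher at 0.01, and 1051 were lower with DESeq2, 3107 with the offsets, 3456 with both and 790 at 0.01. The medians of the megakaryocyte genes (-0.092 to 0.041), other erythroid regulators (-0.097 to 0.052) and myeloid and lymphoid factors (-0.15 to 0.25) changed sign between settings.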
